A study of Mus musculus with 9 samples.

Results

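Respiratory complex I, NADH:ubiquinone oxidoreductase, is the entry point of NADH electrons into the mitochondrial respiratory chain. The genes described here are the 39 protein-coding rows, of 28481 gene rows in the deposited table, whose symbol is Ndufa, Ndufb, Ndufc, Ndufs or Ndufv followed by a digit, or Ndufab1. Assembly factors, whose symbols start with Ndufaf, were left out of the set. Of the 39, 37 encode complex I subunits. The other two, Ndufa4 and Ndufa4l2, carry the family's symbol but are not complex I subunits: NDUFA4 is a subunit of cytochrome c oxidase, and NDUFA4L2 is its paralog. Levels were measured by RNA sequencing of whole epididymal white adipose tissue in 4 UBKO and 5 Control libraries. UBKO mice carry a Cre-driven knockout of Ctnnb1, the gene of beta-catenin, with Cre under the Ucp1 promoter. Control mice are labelled only as Control, and the sources used here do not give the alleles they carry. Both groups had received CL316,243, which activates the beta3-adrenergic receptor of adipocytes. The sources used here give neither dose, duration, age and sex nor whether each library came from its own animal, so p-values measure only the spread between these libraries.

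Complex I is L-shaped. Its matrix arm holds a flavin and a chain of iron-sulfur clusters that pass electrons from NADH to ubiquinone, and its membrane arm pumps protons. The 7 core subunits of the matrix arm are encoded in the nucleus, the core of the membrane arm is encoded by mitochondrial DNA, and the many accessory subunits around both arms are nuclear. Adipocytes that respond to beta3-adrenergic agonists gain mitochondria and uncoupled respiration, which draws on this chain.

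Library totals lay between 15308480 and 17632709 gene counts. The members together took 0.451 to 0.552% of the counts in the UBKO libraries and 0.358 to 0.467% in the Control libraries. Ctnnb1 (mm10 chromosome 9:120929216-120960507), the targeted gene, had 179.8, 209.7, 307 and 199 CPM in the UBKO libraries, against 339, 360.4, 294, 286 and 276 CPM in the Control libraries. The library labelled UBKO replicate 3 therefore lay within the Control range, and over all libraries the difference did not pass the test, with a log2 difference of -0.48 ± 0.17 (SE, n = 4 and 5 libraries; adjusted p = 0.0976). It passed once the library labelled UBKO replicate 3 was left out (-0.66, adjusted p = 0.0328). That was the only 1 of the 9 fits leaving out 1 library that passed, and the adjusted p reached 0.239. Leaving out the UBKO library with the highest Ctnnb1 moves the test towards a call, so that fit does not check the knockout. The difference also passed when libraries were scaled to total gene counts (-0.85, adjusted p = 0.0116). On that scale the median of all tested genes was -0.36, and 26.8% of them were called lower. Cre under the Ucp1 promoter acts in Ucp1-expressing cells, whereas all cells of the pad were sequenced. Control replicates 1 and 2 held epididymal transcripts: the 13 measured epididymal markers summed to 20409.5 and 19801 CPM there, and to at most 1.80 CPM in each of the other 7 libraries, and 7 of the 13 were at 0 in every UBKO library. Adipocyte markers summed to 40255 to 59632 CPM in the UBKO libraries and 23182 to 48460.0 CPM in the Control libraries, and 3 of 14 were called higher (median log2 difference 0.49). Macrophage markers summed to 329 to 400.0 CPM in the UBKO libraries and 1142 to 2391 CPM in the Control libraries, and 13 of 14 were called lower (median -2.42). Of 8 progenitor and fibroblast markers 4 were called lower, of 8 endothelial markers 2 higher, and of 10 brown adipocyte markers 5 higher. Of all tested genes 3.88% were called higher and 7.56% lower. Brown adipocyte markers called higher numbered 2 with total gene counts, 2 without Control replicates 1 and 2, and 1 when scaled to adipocyte markers. Endothelial calls numbered 1, 1 and 0 in the same 3 fits, and progenitor and fibroblast calls 5, 4 and 5, all lower. Of all tested genes 1.54%, 1.5% and 0.502% were called higher in these fits. Lower calls took 26.8% of genes with total gene counts and 20.7% when scaled to adipocyte markers. Without Control replicates 1 and 2 they numbered 782 of 15957 genes. None of 5 mesothelial markers, none of the 3 tested T and B cell markers and 1 of the 3 tested skeletal muscle markers passed the test, the last as lower in UBKO. The part of cell composition in the members' differences was not tested, and in whole tissue fewer cells of a type and less RNA per cell cannot be told apart.

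Under TMM scaling, most complex I subunit transcripts were higher in UBKO than in Control fat, in both arms of the complex. Among the subunits the log2 difference was largest for Ndufv1 (0.90), Ndufb5 (0.89) and Ndufb9 (0.85) and lowest for Ndufb10 (-0.066), which was not called. Of the 39 members, all of which passed the filter on low counts, 23 were called higher and 0 lower at an adjusted p below 0.05 (edgeR's quasi-likelihood test, Benjamini-Hochberg over 16123 genes), where 3.88% of all tested genes were called higher and 7.56% lower. At an unadjusted p below 0.05 no member was lower either, by edgeR or by DESeq2's Wald test, each with 0 of 39. The unadjusted p of the other 16 members ranged from 0.0071 to 0.828. The median log2 difference over the 39 members was 0.62, beside -0.0055 over all tested genes, and 37 of 39 differences were above 0. Highly expressed genes were called higher more often: 8.43% of genes averaging at least 50 CPM, and 13.8% of those with a length of 300 to 3000 bases, as the authors' FPKM implies it. In 24 of the 39 members every UBKO library lay above every Control library, which held for 6.41% of tested genes.

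**Figure D1:**
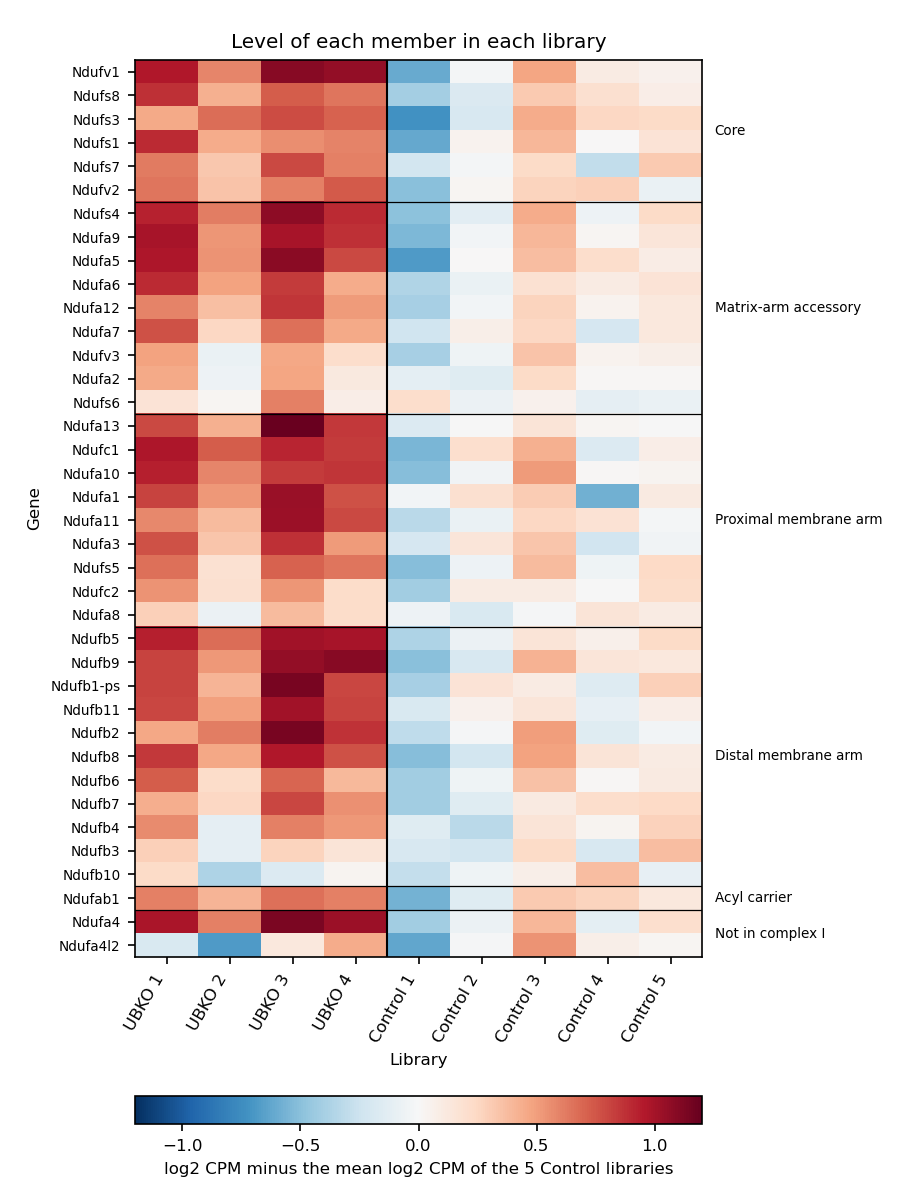
Level of 38 of the 39 members (rows, grouped by place in the complex) in each library (columns, UBKO left of Control), as log2 CPM minus the mean log2 CPM of the 5 Control libraries under TMM scaling. UBKO replicate 2 is the lowest UBKO library in 36 of all 39 members, and Control replicate 1 the lowest Control library in 31.

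The same libraries stood high or low in most members. UBKO replicate 2 was the lowest UBKO library in 36 of 39 members, and the library labelled UBKO replicate 3 was the highest in 24. Control replicate 1 was the lowest Control library in 31 members, and Control replicate 3 the highest in 28. The mean log2 CPM of the 35 subunits with at least 10 CPM on average was 7.06 ± 0.194 in UBKO and 6.44 ± 0.240 in Control libraries (SD, n = 4 and 5). It reached 6.79 in UBKO replicate 2, the lowest UBKO value, and 6.73 in Control replicate 3, the highest Control value, so the groups came close without overlapping. Adipocyte markers had the same extremes except at the top of the UBKO group, with a mean log2 CPM of 10.2 in UBKO replicate 2 and 10.3 in Control replicate 3, so the groups overlapped.

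**Figure D2:**
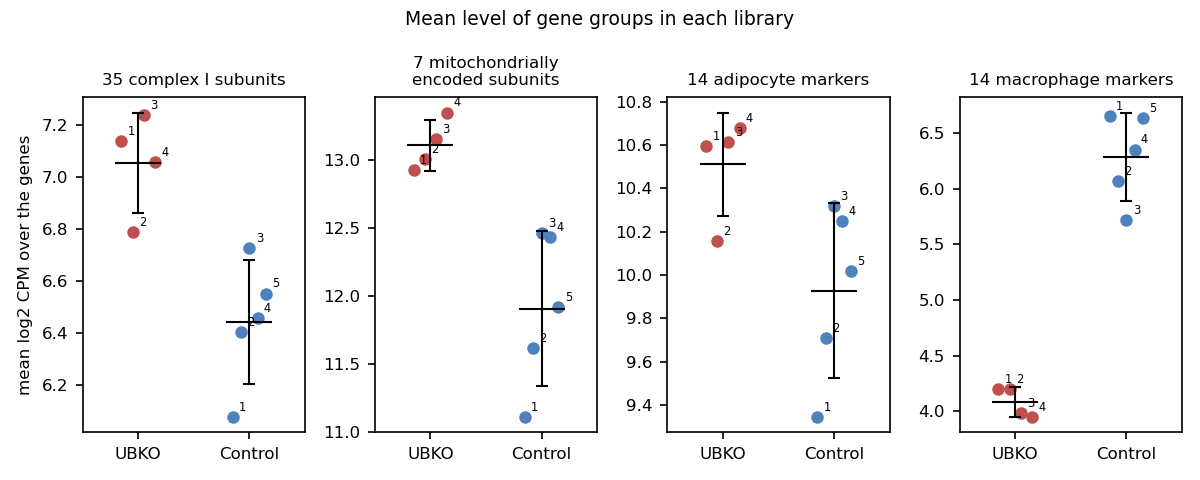
Mean log2 CPM per library of 35 complex I subunits, the 7 mitochondrially encoded subunits, 14 adipocyte markers and 14 macrophage markers (UBKO left of Control, digits are replicate numbers, bars the mean ± SD of 4 and 5 libraries). Complex I levels do not overlap between the groups, and neither do those of the mitochondrially encoded subunits or of the macrophage markers, which are lower in UBKO. Those of the adipocyte markers overlap.

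The count of members called depended on the libraries and on the scaling. Without the library labelled UBKO replicate 3, 4 members were called higher (Ndufa4, Ndufa13, Ndufb5 and Ndufb11; background 0.915%), with a median log2 difference of 0.58. Without UBKO replicate 1 the count was 6 (background 1.39%), and without UBKO replicate 4 it was 5 (0.926%). Without Control replicate 2 (background 2.24%) or Control replicate 5 (2.33%) it was 15. Leaving out both Control libraries with epididymal transcripts, 10 were called (Ndufa4, Ndufa5, Ndufa9, Ndufa13, Ndufb5, Ndufb9, Ndufb11, Ndufc1, Ndufs4 and Ndufv1; background 1.5%) and the median was 0.48. Ndufa4, Ndufa13, Ndufb5 and Ndufb11 were each called in 18 of 19 alternatives to scaling, test, filter and libraries, all but the scaling to adipocyte markers. The authors' deposited table gave 14 of 39 members higher at its own q-value, beside 1.04% of all 28481 gene rows. Those rows were not filtered on counts, unlike the genes behind the other backgrounds.

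TMM factors were 0.818 to 0.933 for the UBKO libraries and 0.997 to 1.33 for the Control libraries, so the choice of scaling matters. Scaled to total gene counts, the median of all tested genes was -0.36, a shift of -0.36 from that under TMM, and the members' median was 0.27. There 12 members were called higher (background 1.54%) and 1, Ndufb10, lower (background 26.8%). Scaled to the mean level of 14 adipocyte markers, the median of all genes was -0.61 and that of the members 0.083. On that scale edgeR called 0 of 39 members higher (background 0.502%), with 1 higher at an unadjusted p below 0.05, and it called 1, Ndufb10, lower (background 20.7%). Under TMM the medians were 0.62 for the members and 0.49 for the adipocyte markers.

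**Figure D3:**
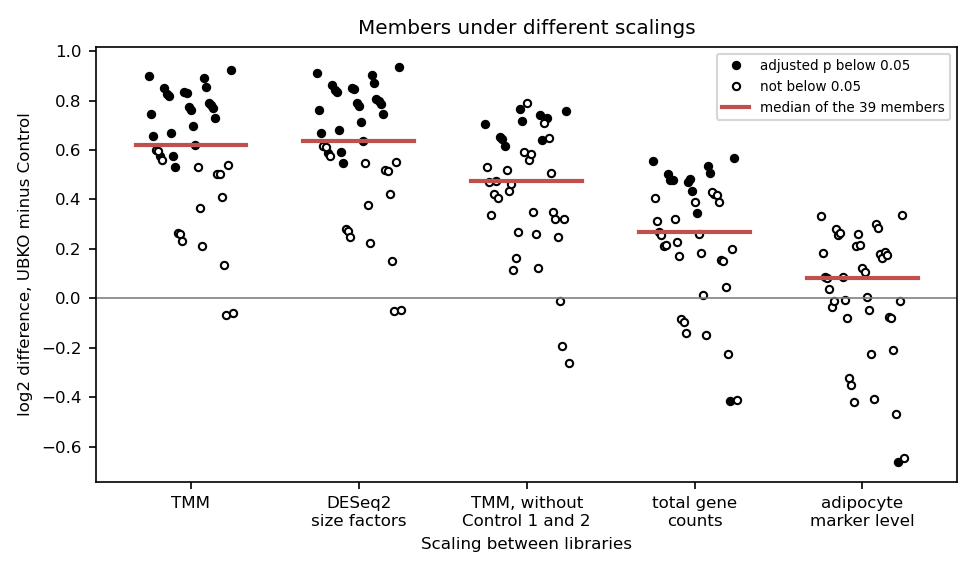
log2 difference, UBKO minus Control, of each of the 39 members (points, filled where the adjusted p is below 0.05) under 4 scalings and, in the middle, under TMM without Control replicates 1 and 2; red lines are medians. The median is 0.62 under TMM, 0.27 with total gene counts and 0.083 with adipocyte markers, where no member is called higher.

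The core subunits carry electrons through the matrix arm, and Ndufv1, Ndufs7 and Ndufs8 among them were called higher. Ndufv1 (mm10 chromosome 19:4007384-4012806), the subunit that binds NADH and the flavin, had 239.5, 185, 264 and 256 CPM in the UBKO libraries, against 81.3, 121, 171, 132 and 128 CPM in the Control libraries. Every UBKO library lay above every Control library, with a log2 difference of 0.90 ± 0.20 (SE, n = 4 and 5 libraries; adjusted p = 0.0192). Ndufv2, which carries an iron-sulfur cluster beside it, had 248, 201, 242 and 265 CPM in the UBKO libraries, against 112, 161, 192, 194 and 151 CPM in the Control libraries. Ndufs1, the large subunit with several iron-sulfur clusters, had 338, 247, 266 and 274 CPM in the UBKO libraries, against 119, 187, 239, 182 and 204 CPM in the Control libraries. In both the groups did not overlap, but neither passed the test, at 0.56 ± 0.17 (adjusted p = 0.057) and 0.60 ± 0.19 (adjusted p = 0.0681), and UBKO replicate 2 came nearest to the Control libraries. Ndufs7, which carries the iron-sulfur cluster nearest to ubiquinone, had 218, 177, 246 and 216 CPM in the UBKO libraries, against 122, 139, 166, 116 and 176 CPM in the Control libraries. Ndufs8, which carries a pair of iron-sulfur clusters, had 136, 100.2, 123 and 116 CPM in the UBKO libraries, against 56.0, 66.0, 92.2, 84.8 and 78.7 CPM in the Control libraries. Neither overlapped between groups, and both were called, at 0.57 ± 0.15 (adjusted p = 0.0406) and 0.66 ± 0.16 (adjusted p = 0.0271). With each of the 9 libraries left out in turn, the call held in 6 fits for Ndufv1, 5 for Ndufs8 and 3 for Ndufs7.

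Ndufs3 (mm10 chromosome 2:90894634-90904827), a core subunit of the hydrophilic arm, had 7.49, 8.67, 9.39 and 8.90 CPM in the UBKO libraries, against 3.30, 4.79, 7.42, 6.49 and 6.40 CPM in the Control libraries. Its difference of 0.60 ± 0.23 (adjusted p = 0.119) did not pass the test although the groups did not overlap. Its level was far under that of the other core subunits, and a processed pseudogene, Gm12251 (chr11:58392769-58393560), held most of the counts of the pair: 81.7 to 86.0% in UBKO and 82.5 to 87.5% in Control libraries. Gm12251 matched the whole coding sequence of Ndufs3, 792 bases from the start codon to the stop codon, with 11 differing bases. The first 90 bases of both are printed, chosen because no other stretch of that length held more differing bases. Reads from it can be told apart only at the capitals, which mark the 3 bases that differ (GENCODE M21 transcripts, mm10):
Ndufs3: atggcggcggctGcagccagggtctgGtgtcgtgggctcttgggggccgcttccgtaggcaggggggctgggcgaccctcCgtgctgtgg
Gm12251: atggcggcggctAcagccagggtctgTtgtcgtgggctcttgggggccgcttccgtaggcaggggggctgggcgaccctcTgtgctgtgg
With the counts of both rows added, Ndufs3 had 51.5 ± 3.502 CPM in UBKO and 37.6 ± 9.69 CPM in Control libraries (SD, n = 4 and 5), a log2 difference of 0.45 ± 0.17 (adjusted p = 0.123). Which row a read from either gene entered cannot be told from counts, so the level of Ndufs3 itself is uncertain.

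**Figure D4:**
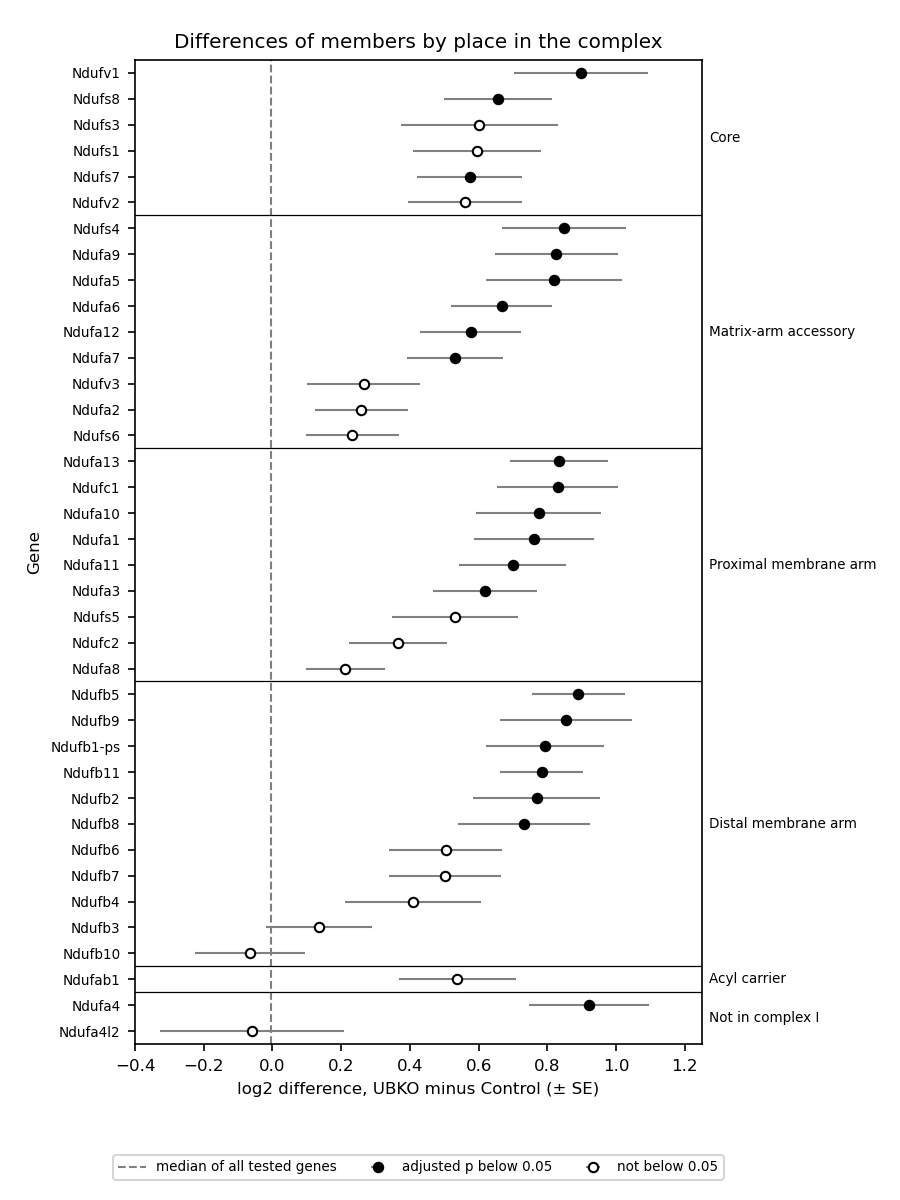
log2 difference, UBKO minus Control, of 38 of the 39 members ± SE, from 4 UBKO and 5 Control libraries under TMM scaling, grouped by place in the complex; filled points have an adjusted p below 0.05 and the dashed line is the median of all tested genes. Each of the 4 structural groups of complex I holds called members, while Ndufb10 and Ndufa4l2 lie below 0 and Ndufb3, Ndufa8, Ndufs6, Ndufa2 and Ndufv3 lie nearest above them.

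Of the 9 accessory subunits of the matrix arm 6 were called higher, with a median log2 difference of 0.58. Their summed level was 888 to 1229 CPM in the UBKO libraries and 562 to 886 CPM in the Control libraries. Ndufs4 (mm10 chromosome 13:114287795-114388258), a phosphorylatable subunit whose loss in mice causes a Leigh-like encephalopathy, had 103, 83.4, 115 and 101 CPM in the UBKO libraries, against 38.8, 49.9, 74.4, 52.3 and 63.7 CPM in the Control libraries. Ndufa9, which binds NADPH near the ubiquinone site, had 300.01, 219, 299 and 277 CPM in the UBKO libraries, against 104, 147, 199, 154 and 167 CPM in the Control libraries. Both showed no overlap between groups, at 0.85 ± 0.18 (adjusted p = 0.0174) and 0.83 ± 0.18 (adjusted p = 0.0188). Another 4 were called. Ndufa5 had 82.6 ± 13.1 CPM in UBKO and 46.8 ± 11.4 CPM in Control libraries, a difference of 0.82. Ndufa6, which binds the acyl carrier protein, had 144 ± 23.1 CPM in UBKO and 90.6 ± 13.4 CPM in Control libraries, a difference of 0.67. Ndufa7 had 124 ± 19.0 CPM in UBKO and 85.7 ± 12.4 CPM in Control libraries (0.53), and Ndufa12, a paralog of the assembly factor Ndufaf2, had 59.1 ± 8.73 CPM in UBKO and 39.7 ± 6.44 CPM in Control libraries (0.58; each SD, n = 4 and 5). Of the 9 fits that left out a library, the call held in 7 for Ndufa6, 6 for Ndufs4 and Ndufa9, 4 for Ndufa5, 3 for Ndufa12 and 2 for Ndufa7. The remaining 3 were not called. Ndufs6 (mm10 chromosome 13:73319838-73328542), a zinc-binding subunit at the foot of the matrix arm, had 29.6, 26.9, 40.2 and 27.9 CPM in the UBKO libraries, against 30.5, 25.2, 27.4, 24.5 and 24.98 CPM in the Control libraries. Control replicate 1 was the second highest of its 9 values, and the gene's difference was 0.23 ± 0.14 (adjusted p = 0.295). Ndufa2, a thioredoxin-fold subunit, had 141, 98.5, 143 and 111 CPM in the UBKO libraries, against 94.6, 92.8, 120.1, 104 and 104 CPM in the Control libraries. Ndufv3, a small subunit beside the NADH-binding subunits, had 173, 117, 170.2 and 143 CPM in the UBKO libraries, against 93.9, 119, 156, 127 and 129.9 CPM in the Control libraries. In both, UBKO replicates 2 and 4 lay within the Control range, and neither passed the test, at 0.26 ± 0.14 (adjusted p = 0.244) and 0.27 ± 0.16 (adjusted p = 0.323).

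Around the proximal membrane arm, nearest to the matrix arm, 6 of 9 accessory subunits were called higher, with a median log2 difference of 0.70. Summed, they had 915 to 1236 CPM in the UBKO libraries and 562 to 862 CPM in the Control libraries. Ndufa13 (mm10 chromosome 8:69894180-69902558), also known as GRIM-19, had 141, 110.0, 186 and 147 CPM in the UBKO libraries, against 72.6, 81.3, 90.8, 82.9 and 81.3 CPM in the Control libraries. Ndufc1, a small single-pass membrane subunit, had 115, 96.6, 110.3 and 104 CPM in the UBKO libraries, against 39.9, 67.0, 78.6, 52.1 and 61.8 CPM in the Control libraries. Both separated the groups, at 0.83 ± 0.14 (adjusted p = 0.0074) and 0.83 ± 0.18 (adjusted p = 0.0171), and the call for Ndufa13 held in each of the 9 fits that left out a library, where that of Ndufc1 held in 6. Ndufa1, a small membrane subunit encoded on the X chromosome, was called too, with 70.6 ± 10.3 CPM in UBKO and 41.6 ± 8.90 CPM in Control libraries, a log2 difference of 0.76. Ndufa3 had 74.4 ± 12.4 CPM in UBKO and 48.4 ± 8.30 CPM in Control libraries (0.62) and was called although UBKO replicate 2 lay just under Control replicate 3. Ndufa10, which has a nucleoside kinase fold, had 298 ± 29.8 CPM in UBKO and 174 ± 44.3 CPM in Control libraries (0.77), and Ndufa11, a multi-pass membrane subunit, had 78.4 ± 15.2 CPM in UBKO and 48.3 ± 7.42 CPM in Control libraries (0.70; each SD, n = 4 and 5). These calls held in 7 such fits for Ndufa11, 6 for Ndufa1, 5 for Ndufa10 and 3 for Ndufa3. Neither Ndufs5, which faces the intermembrane space, nor Ndufc2 was called, with 102 ± 15.9 CPM in UBKO and 70.5 ± 16.0 CPM in Control libraries for Ndufs5 and 104 ± 13.6 CPM in UBKO and 80.4 ± 12.6 CPM in Control libraries for Ndufc2. Their differences were 0.53 ± 0.18 (adjusted p = 0.0891) and 0.36 ± 0.14 (adjusted p = 0.127). Ndufa8 (mm10 chromosome 2:36036326-36049406), a subunit with paired cysteine motifs that faces the intermembrane space, had 131, 103, 140.0 and 125 CPM in the UBKO libraries, against 103, 94.8, 106, 119.6 and 115 CPM in the Control libraries. Its lowest UBKO library lay inside the Control range, and its difference was 0.21 ± 0.12 (adjusted p = 0.262).

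At the distal membrane arm 6 of 11 were called higher, with a median log2 difference of 0.73, and the summed level was 1350.5 to 1879 CPM in the UBKO libraries and 828.6 to 1294 CPM in the Control libraries. Ndufb5 (mm10 chromosome 3:32736990-32751566), a single-pass membrane subunit, had 188, 156, 197 and 194 CPM in the UBKO libraries, against 75.7, 93.4, 109, 102 and 115 CPM in the Control libraries. Ndufb11 (mm10 chromosome X:20615326-20617619), a membrane subunit encoded on the X chromosome, had 196, 159, 226 and 197 CPM in the UBKO libraries, against 99.5, 116, 125, 105 and 119 CPM in the Control libraries. Ndufb9, a subunit of the LYR motif family, had 356, 292, 421 and 433 CPM in the UBKO libraries, against 143, 178, 271, 225 and 222 CPM in the Control libraries. Each of the 3 separated the groups, with 0.89 ± 0.14 (adjusted p = 0.0042), 0.78 ± 0.12 (adjusted p = 0.0045) and 0.85 ± 0.19 (adjusted p = 0.0219). Calls for Ndufb5 and Ndufb11 held in each of the 9 fits that left out a library, and that for Ndufb9 in 6. Ndufb8 had 238 ± 33.2 CPM in UBKO and 143 ± 36.7 CPM in Control libraries, a log2 difference of 0.73. Ndufb2 had 68.7 ± 14.4 CPM in UBKO and 40.3 ± 9.20 CPM in Control libraries (0.77), and Ndufb1-ps, the mouse row for NDUFB1, had 60.4 ± 12.2 CPM in UBKO and 34.9 ± 6.33 CPM in Control libraries (0.79; each SD, n = 4 and 5). These 3 were called, although in Ndufb8 and Ndufb2 a UBKO library lay just under the highest Control library, and the calls held in 6 such fits for Ndufb1-ps and 3 each for Ndufb8 and Ndufb2. Ndufb6 and Ndufb7 did not pass, with 133 ± 22.2 CPM in UBKO and 93.5 ± 17.5 CPM in Control libraries for Ndufb6 and 176 ± 28.5 CPM in UBKO and 124 ± 22.5 CPM in Control libraries for Ndufb7, differences of 0.50 ± 0.16 (adjusted p = 0.0773) and 0.50 ± 0.16 (adjusted p = 0.0746). The remaining pair had the smallest differences of the distal arm. Ndufb10 (mm10 chromosome 17:24722060-24724478), which carries disulfides and faces the intermembrane space, had 149, 97.7, 113 and 129 CPM in the UBKO libraries, against 104, 122, 133, 163 and 118 CPM in the Control libraries. Ndufb3 (mm10 chromosome 1:58586384-58595964), a small membrane subunit, had 118, 90.2, 117 and 109 CPM in the UBKO libraries, against 85.3, 83.7, 114, 85.1 and 126 CPM in the Control libraries. In both the highest of the 9 values was a Control library, and the differences were -0.066 ± 0.16 (adjusted p = 0.829) and 0.14 ± 0.15 (adjusted p = 0.61).

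Ndufb4 was the second member with few counts in its own row. It had 7.94, 4.98, 8.17 and 7.72 CPM in the UBKO libraries, against 4.85, 4.29, 5.98, 5.48 and 6.52 CPM in the Control libraries, a difference of 0.41 ± 0.20 (adjusted p = 0.21). The processed pseudogene Ndufb4c (chr15:73809507-73809896) matched it over 390 bases at 100% identity and held 86.0 to 89.9% of the pair's counts in UBKO and 84.8 to 88.2% in Control libraries. Summed with it, Ndufb4 differed by 0.46 ± 0.14 (adjusted p = 0.0616). Which row a read entered cannot be told from counts here either, so the level of Ndufb4 itself is uncertain.

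Ndufab1 (mm10 chromosome 7:122085403-122101886) encodes the mitochondrial acyl carrier protein, which serves fatty acid synthesis in the matrix and is bound to complex I through LYR subunits. It had 92.2, 80.4, 95.8 and 91.9 CPM in the UBKO libraries, against 40.9, 54.9, 75.5, 73.0 and 66.1 CPM in the Control libraries. The groups did not overlap, and the difference of 0.54 ± 0.17 (adjusted p = 0.0705) missed the threshold. Its processed pseudogenes Gm4459 (chr7:139659688-139660155, 99.8% identical over 468 bases) and Ndufab1-ps (chr7:80507787-80508254, 99.4% identical over 469 aligned positions) drew counts in every library. Gm4459 had 109, 90.5, 126 and 110.3 CPM in the UBKO libraries, against 34.2, 56.0, 75.8, 60.4 and 76.9 CPM in the Control libraries. Ndufab1-ps had 187, 142, 191 and 173 CPM in the UBKO libraries, against 69.8, 103, 116, 103 and 119 CPM in the Control libraries. Both rows were called higher, at 0.84 ± 0.22 (adjusted p = 0.0356) and 0.76 ± 0.16 (adjusted p = 0.0173). With all 3 rows added, Ndufab1 was called higher as well, at 0.73 ± 0.18 (adjusted p = 0.0305), which brought the members called higher to 24. That sum was chosen after the data had been seen.

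In all, 8 members had 9 processed pseudogenes of at least 95% identity over at least 200 bases. Besides Ndufs3, Ndufb4 and Ndufab1, the copy of Ndufa12 held 48.2 to 50.2% of the pair's counts in UBKO and 48.6 to 52.4% in Control libraries. That of Ndufs5 held 34.5 to 36.1% in UBKO and 34.3 to 37.9% in Control libraries. For Ndufs6 the copy took 12.5 to 15.4% in UBKO and 5.55 to 16.0% in Control libraries, and for Ndufb11 and Ndufb3 at most 4.92% in any library. Adding the copies left Ndufa12 (0.55, adjusted p = 0.0393) and Ndufb11 (0.78, adjusted p = 0.0046) called, and Ndufs5, Ndufs6 and Ndufb3 not called. Separately, 8 members overlap a row with at least 10% of their counts, and the sources used here do not say whether counting used strand: Ndufa11 with Vmac, Ndufa4l2 with Shmt2, Ndufb1-ps with Cpsf2, Ndufb11 with Rbm10, Ndufb2 with Braf, Ndufb5 with Mrpl47, Ndufs1 with Eef1b2 and Ndufs6 with Mrpl36. The shared stretches ran from 9 bases (Ndufs1) to 1081 bases (Ndufb1-ps).

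**Figure D5:**
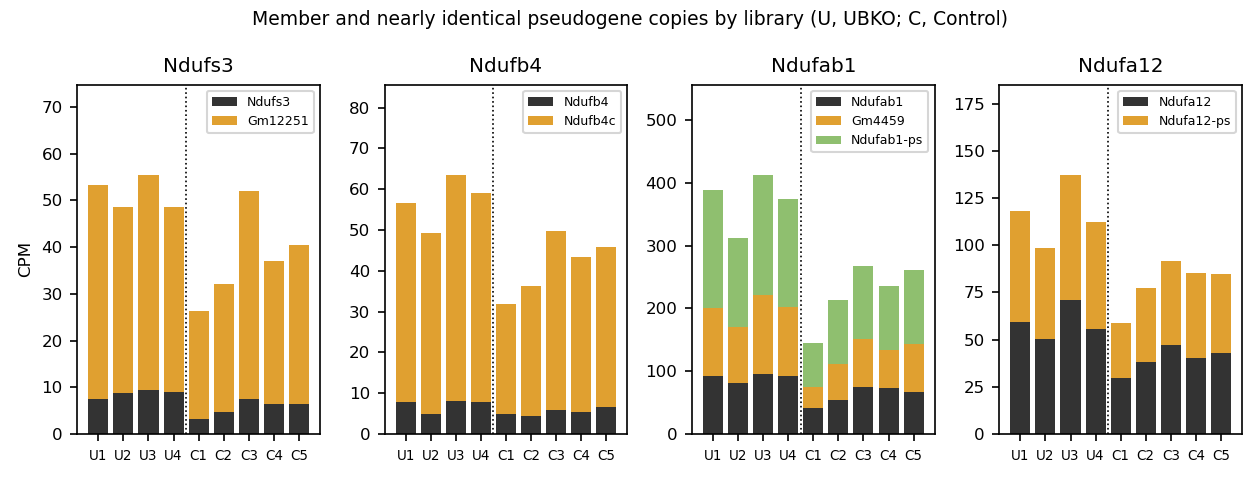
CPM per library (UBKO left of the dotted line, Control right) of Ndufs3, Ndufb4, Ndufab1 and Ndufa12 in black, with their nearly identical processed pseudogenes stacked above in colour. The copies hold most of the stack for the first 3 genes in every library, and about as much as the gene for Ndufa12.

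Per length, in the authors' FPKM, which are scaled to total gene counts, levels of the 37 subunits spanned 130.5-fold in UBKO fat. Span and order depend on the length that these FPKM imply. That length was 1162 bases for Ndufb9, 572 for Ndufa2 and 908 for Ndufb11, against 2369 for Ndufb4 and 3499 for Ndufs3. The coding sequence of Ndufs3 holds 792 bases. In UBKO libraries Ndufb9 was the highest, at 277 ± 33.5 FPKM in UBKO and 195 ± 30.6 FPKM in Control libraries (SD, n = 4 and 5). Ndufa2 and Ndufb11 followed in UBKO, at 185 ± 29.8 and 184 ± 18.8 FPKM in UBKO libraries, within each other's spread, against 198 ± 13.3 and 137 ± 13.1 FPKM in Control libraries. In Control libraries Ndufa2 and Ndufb9 were within each other's spread. Ndufb4 and Ndufs3 were the lowest, at 2.60 ± 0.446 and 2.12 ± 0.196 FPKM in UBKO libraries, and 2.52 ± 0.374 and 1.76 ± 0.383 FPKM in Control libraries; both are rows whose pseudogene held most of the pair's counts.

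Ndufa4 and Ndufa4l2, the members outside complex I, had unlike values. Ndufa4 (mm10 chromosome 6:11900292-11907497) had 318, 246, 354 and 328 CPM in the UBKO libraries, against 121, 154, 213, 149 and 186 CPM in the Control libraries. Its difference of 0.92 ± 0.17 (adjusted p = 0.0111) was the largest of the 39, the groups did not overlap, and the call held in each of the 9 fits that left out a library. Ndufa4l2 (mm10 chromosome 10:127514967-127517154), known as a hypoxia-induced gene, had 8.14, 5.76, 10.04 and 12.6 CPM in the UBKO libraries, against 5.99, 9.13, 13.4, 9.70 and 9.37 CPM in the Control libraries. The groups overlapped throughout, at -0.060 ± 0.27 (adjusted p = 0.911), and the sign turned when UBKO replicate 2 or Control replicate 3 was left out.

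Whether single members departed from the complex as a whole was tested by scaling each library to the mean log2 level of the 35 subunits, a mean that the tested subunits are themselves part of. On that scale the median of all tested genes was -0.62, and 0.719% of genes were called higher and 48.2% lower, so a lower call was frequent. Of the 39 members 1 was called higher and 6 lower. Ndufa4 was the higher one, at 0.32 ± 0.11 (adjusted p = 0.0344). The many lower calls loosen the adjustment for higher calls too. Ndufa4 passed here with an unadjusted p of 0.0143 in edgeR's test. Under TMM an unadjusted p of 0.0056 in the same test, that of mt-Nd4, already gave an adjusted p of 0.0494. The lower ones were Ndufb10 at -0.68 ± 0.16 (adjusted p = 0.0095), Ndufb3 at -0.47 ± 0.14 (adjusted p = 0.0184), Ndufa8 at -0.42 ± 0.14 (adjusted p = 0.0322), Ndufa2 at -0.37 ± 0.13 (adjusted p = 0.0337), Ndufv3 at -0.34 ± 0.11 (adjusted p = 0.0252) and Ndufa4l2 at -0.66 ± 0.22 (adjusted p = 0.0319). Ndufb10 was called in each of the 9 fits that left out a library, Ndufb3 in 8, Ndufv3 in 5 and Ndufa4, Ndufa8, Ndufa2 and Ndufa4l2 in 3 each. With the library labelled UBKO replicate 3 left out there was 1 lower call, and there were 3 without any other UBKO library or Control replicate 4. Higher calls numbered 0 without Control replicate 1, 2 or 4 or any UBKO library but replicate 2, and 3 without Control replicate 3. The shares of 0.719% and 48.2% hold for the fit with all libraries. No share over all genes was counted for the fits with libraries left out, so their counts have no background here. Without Control replicates 1 and 2, Ndufb10 (-0.67, adjusted p = 0.0324), Ndufb3 (-0.48, adjusted p = 0.0436) and Ndufa4l2 (-0.73, adjusted p = 0.0499) were still called, while Ndufa4, Ndufa8, Ndufa2 and Ndufv3 were not (adjusted p = 0.117, 0.087, 0.098 and 0.0644).

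The 7 subunits that mitochondrial DNA encodes, the proton-pumping core of the membrane arm, were called higher in 6 of 7 cases, with a median log2 difference of 1.12 and a range of 1.03 to 1.22. Of all tested genes 3.88% were called higher. mt-Nd1 had 24916, 23229, 26767 and 32121 CPM in the UBKO libraries, against 7194, 9638, 15236, 15732 and 11001 CPM in the Control libraries. The groups did not overlap for any of the 7. mt-Nd5 was the one that missed the threshold, at 1.03 ± 0.32 (adjusted p = 0.0681). Relative to the mean of the nuclear subunits, mt-Nd1, mt-Nd2 and mt-Nd6 were called higher, at 0.61 ± 0.17 (adjusted p = 0.0173), 0.66 ± 0.20 (adjusted p = 0.0239) and 0.61 ± 0.22 (adjusted p = 0.0436). On that scale 0.719% of all tested genes were called higher, and the many lower calls loosen the adjustment. Scaled to adipocyte markers, all 7 were called higher (median 0.59), where 0 of the 39 nuclear members and 0.502% of all tested genes were. Under TMM the calls of these 7 numbered 0 without UBKO replicate 4 (background 0.926%), Control replicate 2 (2.24%), Control replicate 5 (2.33%) or the library labelled UBKO replicate 3 (0.915%). They numbered 1 without UBKO replicate 1 (1.39%), 3 without UBKO replicate 2 (565 of all tested genes) and 2 without Control replicates 1 and 2 (1.5%, median 0.80). The mitochondrial chromosome took 20.1 to 25.4% of counts in UBKO and 8.78 to 17.8% in Control libraries.

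Assembly factors, which build complex I but are not part of it, numbered 17 in the table, and 1, Ndufaf1, was called higher (median log2 difference 0.23). The share over all tested genes, beside which the TMM counts with all libraries in this paragraph stand, was 3.88% higher and 7.56% lower. Ndufaf1 had 35.5, 29.96, 31.8 and 39.5 CPM in the UBKO libraries, against 16.3, 21.4, 28.2, 20.5 and 26.5 CPM in the Control libraries, a difference of 0.60 ± 0.16 (adjusted p = 0.045), which did not pass without Control replicate 1, 2 or 4 or any UBKO library but replicate 2 (highest adjusted p = 0.137). It did not pass with total gene counts (0.25, adjusted p = 0.208) or scaled to adipocyte markers (0.022, adjusted p = 0.932) either. Relative to the complex I mean 7 of the 17 were called lower, beside the 48.2% of all tested genes. Subunits of the other complexes of oxidative phosphorylation numbered 38, of which 21 were called higher and 0 lower, with a median log2 difference of 0.64. The higher calls numbered 4 without UBKO replicate 1 or the library labelled UBKO replicate 3, 5 without UBKO replicate 4, 13 without Control replicate 2 and 10 without Control replicates 1 and 2. With total gene counts 14 were called higher and 2 lower (backgrounds 1.54% and 26.8%, median 0.30). Scaled to adipocyte markers 1 was called higher and 1 lower (backgrounds 0.502% and 20.7%, median 0.079). By complex the TMM calls with all libraries were 2 of 4 for complex II, 5 of 9 for complex III, 8 of 10 for complex IV and 6 of 15 for complex V. Their medians were 0.59, 0.68, 0.88 and 0.57. The complex I subunits, without Ndufa4 and Ndufa4l2, had a median of 0.62 and 22 of 37 called. They thus lay among the other complexes, and no difference between complexes was tested. Of 9 regulators of mitochondrial gene expression, 1 was called: Ppargc1a, the coactivator that drives mitochondrial biogenesis, which also stands on the brown adipocyte list, had 7.75, 8.67, 7.74 and 5.70 CPM in the UBKO libraries, against 3.11, 5.29, 4.97, 3.65 and 2.85 CPM in the Control libraries, a difference of 0.91 ± 0.23 (adjusted p = 0.0349). With a library left out, Ppargc1a passed only without Control replicate 2 or Control replicate 3, and the adjusted p reached 0.0936. It did not pass with total gene counts (0.57, adjusted p = 0.106) or scaled to adipocyte markers (0.34, adjusted p = 0.415).

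Because many members were called in the same direction, their promoters were scanned for motifs of factors known to act on respiratory genes. RefSeq windows of 300 bases (250 before and 50 after the annotated start, GRCm38.p6) were found for 33 members, 35 windows in all, and Ndufa2, Ndufa4l2, Ndufb1-ps, Ndufb9 and Ndufs1 were among those without one. Both strands were searched, and different motifs overlapped in 1 member window. Median GC content was 59.0% in member windows and 52.7% over all 32851 windows. The NRF1 motif GCGCANGCG occurred in 25.7% of member windows and 6.25% of all windows. The YY1 motif AAGATGGCG occurred, again of member and of all windows, in 14.3% and 1.40%, the CREB motif TGACGTCA in 8.57% and 1.79%, the ETS-family motif CCGGAAG in 11.4% and 8.86%, and the SP1 motif GGGCGG in 45.7% and 35.7%. The ERR motif TCAAGGTCA was in none of the member windows and in 0.423% of all windows. Of the 20 called members with a window 3 held the NRF1 motif, 4 the YY1 motif and 3 the CREB motif, and of the 13 others 5, 1 and 0 did.

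The windows of 4 members are printed 5′ to 3′ along the gene, with motif matches in capitals, to show the same letters in members that were called higher and in members that were not. Ndufs4 (chr13:114388045-114388344, minus strand) and Ndufs6 (chr13:73328433-73328732, minus strand) are the matrix-arm accessory subunits with the largest and the smallest difference, and both hold the YY1 motif just inside the transcript, from positions 36 and 34, counting the first transcribed base as 1. Ndufa11 (chr17:56717512-56717811, plus strand) was called and holds the CREB and NRF1 motifs. Ndufb10 (chr17:24724374-24724673, minus strand) had the lowest difference of the members and holds the NRF1 motif at the start.
Ndufs4: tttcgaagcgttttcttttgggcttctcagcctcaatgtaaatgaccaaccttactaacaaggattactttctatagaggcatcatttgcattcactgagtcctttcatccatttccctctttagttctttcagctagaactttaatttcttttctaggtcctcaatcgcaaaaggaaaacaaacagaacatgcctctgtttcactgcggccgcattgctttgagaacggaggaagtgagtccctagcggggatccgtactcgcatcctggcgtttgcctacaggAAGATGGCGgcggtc
Ndufs6: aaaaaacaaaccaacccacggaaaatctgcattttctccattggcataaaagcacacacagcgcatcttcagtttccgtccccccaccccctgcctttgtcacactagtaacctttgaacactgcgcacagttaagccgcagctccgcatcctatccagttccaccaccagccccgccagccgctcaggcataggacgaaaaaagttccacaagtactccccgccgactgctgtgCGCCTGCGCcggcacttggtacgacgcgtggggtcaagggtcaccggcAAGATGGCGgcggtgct
Ndufa11: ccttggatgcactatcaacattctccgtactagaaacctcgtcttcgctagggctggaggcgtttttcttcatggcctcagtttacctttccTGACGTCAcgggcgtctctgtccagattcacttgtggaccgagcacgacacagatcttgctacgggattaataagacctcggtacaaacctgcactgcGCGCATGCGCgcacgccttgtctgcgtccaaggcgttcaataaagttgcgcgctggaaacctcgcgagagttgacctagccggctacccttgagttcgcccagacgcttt
Ndufb10: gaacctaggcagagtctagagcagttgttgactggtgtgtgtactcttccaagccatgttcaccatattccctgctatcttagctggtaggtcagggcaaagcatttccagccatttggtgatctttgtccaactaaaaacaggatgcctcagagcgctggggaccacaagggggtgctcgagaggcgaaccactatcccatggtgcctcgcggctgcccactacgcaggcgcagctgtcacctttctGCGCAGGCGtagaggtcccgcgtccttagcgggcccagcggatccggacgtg
Ndufs6 holds the NRF1 motif as well. A match is a run of letters, and no binding was measured in these libraries.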

How the data were processed

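The authors deposited 1 table with whole-number read counts and FPKM per gene and library, together with a log2 ratio, a p-value and a q-value of their own comparison, by a test that no source used here names. Build mm10, HISAT2, Cuffdiff and SAMtools 1.3.1 appear in the submitters' processing notes, without roles. The read counter and the gene annotation were not given in the sources used here. FPKM implied the same gene length in every library.

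The main test of these counts was edgeR's (version 4.0.16, R 4.3.3; filterByExpr by group, TMM, glmQLFit and glmQLFTest, genotype only, two-sided, Benjamini-Hochberg over 16123 genes, threshold 0.05). CPM values are TMM-scaled, and the SE was derived from the F statistic. A further fit scaled libraries to the mean of 35 subunits with at least 10 CPM on average. Alternatives used DESeq2 1.42.0, limma 3.58.1 on log2(FPKM + 1) and other scalings, libraries and filters. Processed pseudogenes were found with blastn 2.17.0 among GENCODE M21 transcripts. The scripts were run on simulated counts only to check that they work. For the scaling to the mean of a gene set, those counts had less spread than these libraries. That run therefore does not show how reliable the calls on that scale are here. No replicates were duplicates (lowest chi-square per degree of freedom 17.0).

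The members and gene lists were chosen with earlier results of these data known. Values in every library are given for core subunits and Ndufab1, and, in each of the other 3 structural groups, for the 2 members with the smallest p, the 2 with the largest and the 1 with the smallest log2 difference, for Ndufa4, Ndufa4l2 and every member called against the complex I mean. Outside the members the rule names Ctnnb1 and called regulators. Values of Ndufb4, mt-Nd1, Ndufaf1 and the pseudogenes were added after the data had been seen. The values of 1 member are not reported here; it stays in the counts over all 39.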

Additional observations from a re-analysis of the deposited data

Results flagged for a closer look

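Of 78 checks of a member within a group, 2 found a library that stood apart from the others of its group, UBKO replicate 2 in both; chance gives about 1 in 20. Ndufs5 had 78.2 CPM in UBKO replicate 2, against 107 to 113 CPM in the other UBKO libraries. Ndufb4 had 4.98 CPM in UBKO replicate 2, against 7.72 to 8.17 CPM in the other UBKO libraries. UBKO replicate 2 was the lowest UBKO library for 36 of the 39 members.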

How the results depend on the processing

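The members' median stayed above 0 in all 20 alternatives, of which the adding of copies was chosen after seeing the data. Leaving out 1 library gave 4 to 28 members called higher and 0 lower, with medians of 0.58 to 0.71, and 152 to 954 genes higher and 604 to 1495 lower over all genes. Counts of members called higher under the other alternatives were 12 with total counts (median 0.27), 0 with the adipocyte marker level (median 0.083), 12 with limma on log2(FPKM + 1) (median 0.25), 14 in the authors' deposited comparison (median 0.27) and 10 without Control replicates 1 and 2. Lower calls were 1 with total counts, the adipocyte marker level and limma, and 0 otherwise. With DESeq2 size factors, no filter, DESeq2's Wald test, copies added, and without Control replicates 1 and 2 and UBKO replicate 2 the counts were 23, 17, 29, 24 and 21. Over all genes, higher and lower calls numbered 249 and 4317 with total counts, 81 and 3336 with the adipocyte marker level, 300 and 810 with no filter, 240 and 782 without Control replicates 1 and 2, 411 and 873 without UBKO replicate 2 as well, 1285 and 1756 by DESeq2's Wald test, 277 and 3748 by limma, and 295 and 998 in the authors' deposited comparison. The causes were not tested. Ctnnb1 was at -0.30 without Control replicates 1 and 2 and UBKO replicate 2, and ranged from -0.66 to -0.38 with a library left out. It passed the threshold with total counts (-0.85), the adipocyte marker level (-1.13), DESeq2's Wald test (-0.46) and limma (-0.82). The median of all tested genes was -0.36 with total counts and -0.61 with the adipocyte marker level.

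Signs turned, as follows, in members of which Ndufa7, Ndufa12 and Ndufs7 were called under TMM. With the adipocyte marker level the log2 differences were Ndufa12 -0.0042, Ndufa2 -0.35, Ndufa7 -0.079, Ndufa8 -0.41, Ndufab1 -0.012, Ndufb3 -0.47, Ndufb4 -0.21, Ndufb6 -0.075, Ndufb7 -0.077, Ndufc2 -0.22, Ndufs5 -0.047, Ndufs6 -0.42, Ndufs7 -0.036, Ndufv2 -0.010, Ndufv3 -0.32. With total counts they were Ndufa2 -0.10, Ndufa8 -0.15, Ndufb3 -0.22, Ndufs6 -0.14, Ndufv3 -0.083. limma gave Ndufa2 -0.11, Ndufa8 -0.15, Ndufb3 -0.20, Ndufs6 -0.13, Ndufv3 -0.085, and the authors' deposited comparison Ndufa2 -0.10, Ndufa8 -0.15, Ndufb3 -0.22, Ndufs6 -0.14, Ndufv3 -0.083. Without Control replicates 1 and 2 Ndufb3 was at -0.0096. With a library left out Ndufa4l2 ranged from -0.25 to 0.11 and Ndufb10 from -0.17 to 0.05. Without UBKO replicate 2 Ndufa4l2 was at 0.11 and Ndufb10 at 0.028, without Control replicate 3 Ndufa4l2 at 0.095, and without Control replicate 4 Ndufb10 at 0.054. Against the complex I mean, leaving out 1 library gave 0 to 3 members higher and 1 to 5 lower. There were 0 higher and 3 lower without Control replicates 1 and 2 and with no filter, and 3 higher and 6 lower with limma on log2 CPM. No share over all genes was counted for these alternatives against the complex I mean, nor for the replicate block below.

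The labels state no pairing by replicate number, so the main fit used none. Same-numbered libraries had correlations of deviations of -0.17, 0.48, 0.13 and 0.19, and 4 of 8 libraries correlated best with their own number. These values do not settle whether the libraries were paired. The fit with the replicate number as a block called 9 members higher, with a median of 0.69, and 191 genes higher and 556 lower over all genes; against the complex I mean it called 0 members higher and 1 lower. Ndufs3 and Ndufb4 were at under 10 CPM in every library. Besides depth, their levels are limited by which row a read entered, theirs or that of the pseudogene.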
